A study of Mus musculus with 29 samples.

Results

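The unfolded protein response and the integrated stress response were followed here through 36 named genes, all of which were found among the 22187 gene IDs measured. The genes were taken from a list of names, and that list was drawn up with earlier results of these data known. They were split by known role into 5 sensors and transcription factors, 14 targets of the transcription factor ATF4, 14 chaperones and folding enzymes of the endoplasmic reticulum (ER), and 3 genes of ER-associated degradation. RNA sequencing covered 29 libraries of liver from C57BL/6 mice, all injected with 25 mg/kg of the liver carcinogen diethylnitrosamine (DEN) at 2 weeks of age and fed for 18 weeks. In the labels the feeding is HFD or HFD_alcohol, shortened to alcohol below, and the genotype is IL17RA-/- or WT, where IL17RA is the receptor subunit through which IL-17A acts. The alcohol groups held 5 IL17RA-/- and 5 WT libraries from non-tumour tissue, with 4 IL17RA-/- and 3 WT tumours. Each of the 4 HFD groups, by tissue and genotype, held 3. Every group had DEN, so no untreated liver is compared, and the labels do not say which libraries came from the same animal. The p-values therefore measure only the spread between these libraries, which may be technical.

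When unfolded protein gathers in the ER, the membrane sensors IRE1 (encoded by Ern1), PERK (Eif2ak3) and ATF6 start separate arms of a response. IRE1 splices Xbp1 mRNA, and XBP1 and cleaved ATF6 raise transcription of chaperones and of the degradation machinery. PERK phosphorylates the translation factor eIF2, which lowers general translation and favours translation of ATF4. Other kinases that sense amino acid shortage, haem shortage or viral RNA act on the same factor, so ATF4 targets can move without ER stress, which is why the targets and the chaperones are set side by side. The liver, which secretes most plasma proteins, carries a heavy folding load. Splicing of Xbp1, cleavage of ATF6, phosphorylation of eIF2 and the amount of ATF4 protein are not seen in gene-level mRNA values.

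The promoters of both target sets carry different short motifs, and stretches from some of the genes the results turn on are shown. The genes were placed in their sets by known role, not by these motifs. Sequences came from RefSeq (GRCm38.p6), in windows from 250 bases before to 50 bases after each annotated start, and 33 of the 36 genes had a window, 36 windows in all. The CARE, bound by ATF4 with C/EBP partners, was searched as TGATGNAAN. The ERSE of chaperone promoters was searched as CCAAT and CCACG with 9 bases between them, the ERSE-II as ATTGG and CCACG with 1 base between them, and the UPRE as TGACGTGG, each on both strands. A CARE was present in 5 of 14 ATF4 targets (Asns, Chac1, Nupr1, Trib3 and Vldlr) and in 0 of 12 chaperone genes, against 4.50% of all 27025 genes with a window. An ERSE was present in 7 of 12 chaperone genes (Calr, Canx, Creld2, Dnajc3, Hsp90b1, Hspa5 and Pdia6) and in 0 of 14 ATF4 targets, against 0.137% of all genes with a window. The windows of Phgdh, Psat1 and Sesn2 held none of the 4 motifs. Herpud1 had both a CARE and an ERSE-II, and among the 36 genes the ERSE-II was otherwise found only in Dnajb11. The shares over all genes with a window were 0.0444% for the ERSE-II and 0.714% for the UPRE, which no member held. A match is a description of letters, not proof of a bound site. The stretches below are written 5′ to 3′ on the strand of the gene, with the matched letters in capitals. A match on the other strand is printed as it reads on the strand of the gene. Starts here are those of RefSeq and can differ from the gene coordinates given further on, which came from GENCODE. For Trib3 the match lies before the start in those coordinates (152344032). For Asns and Hspa5 the match lies after it (7693254 and 34771970). The Trib3 stretch lies at chr2:152344029-152344057 (minus strand, just after the start), Asns at chr6:7693210-7693277 (minus), Chac1 at chr2:119351003-119351101 (plus), Hspa5 at chr2:34771980-34772088 (plus), Pdia6 at chr12:17266446-17266554 (plus) and Herpud1 at chr8:94386271-94386428 (plus).
Trib3: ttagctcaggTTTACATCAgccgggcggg
Asns: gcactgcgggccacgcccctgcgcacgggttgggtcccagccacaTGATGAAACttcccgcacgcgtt
Chac1: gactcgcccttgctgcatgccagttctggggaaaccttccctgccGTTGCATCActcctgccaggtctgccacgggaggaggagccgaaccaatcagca
Hspa5: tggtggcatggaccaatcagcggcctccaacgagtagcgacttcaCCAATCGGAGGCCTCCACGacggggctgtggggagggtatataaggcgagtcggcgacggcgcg
Pdia6: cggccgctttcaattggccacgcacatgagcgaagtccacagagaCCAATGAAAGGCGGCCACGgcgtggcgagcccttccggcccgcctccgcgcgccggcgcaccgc
Herpud1: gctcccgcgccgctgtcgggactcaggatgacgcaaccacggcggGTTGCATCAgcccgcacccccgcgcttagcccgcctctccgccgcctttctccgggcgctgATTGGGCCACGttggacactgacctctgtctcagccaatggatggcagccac

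Values are CPM, counts scaled to the same total in each library. Depth recovered from the values lay between 3213697 and 9660585 counts, and 3 counts stood for 0.31 to 0.93 CPM. Il17ra mRNA did not pass the test as lower in any group labelled IL17RA-/-. On HFD it was 59.4 ± 4.45 CPM in tumours labelled IL17RA-/- and 32.8 ± 13.8 in WT tumours (SD, n = 3 each), so every direction between genotypes rests on the labels. On the first principal component of all genes, which held 53.8% of the variance, the tissues separated, but HFD WT tumour replicate 4 and HFD WT non-tumour replicate 1 lay nearest the other tissue. The summed level of 4 liver tumour markers was 181 CPM in that non-tumour library and 429 CPM in HFD non-tumour replicate 3 labelled IL17RA-/-, against 195 CPM in HFD WT tumour replicate 4. Those 3 libraries, and alcohol tumour replicate 5 labelled IL17RA-/-, were left out in 1 of the alternatives given beside the results.

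Between tissues, tumours had more mRNA of serine synthesis enzymes, of the pseudokinase Trib3 and of IRE1 and XBP1, with a smaller rise of ER chaperones. On HFD alone, the share of chaperones that passed as higher was near that of all genes. In the mean over diets and genotypes (13 tumour against 16 non-tumour libraries), 29 of the 36 genes passed the test, 24 of them higher and 5 lower. The test was limma on log2(CPM + 1) with Benjamini-Hochberg adjustment, two-sided at 0.05. The background was high, since 63.6% of the 13586 genes tested passed as well. Without the 4 doubted libraries 28 of 36 passed, 24 higher and 4 lower. Among the ATF4 targets 9 rose and 3 fell, with a median log2 fold change of 0.95. Among the chaperones 11 rose and 0 fell, with a median of 0.51, against 0.09 over all genes tested. The targets spread from -1.25 to 3.69 and the chaperones from -0.27 to 1.11, so the targets differed among themselves far more than the chaperones did. In bulk tissue, fewer cells of a type and less RNA per cell cannot be told apart.

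**Figure D1:**
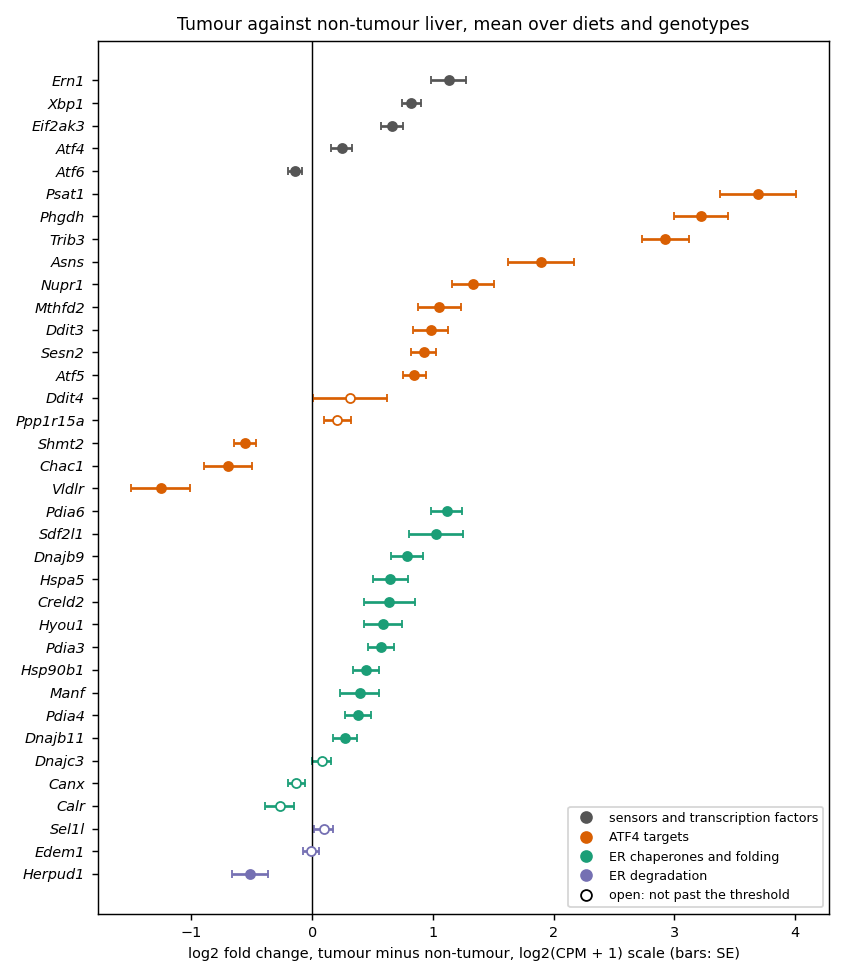
Log2 fold change (x axis, log2(CPM + 1) scale, tumour minus non-tumour, mean over diets and genotypes) of the 36 genes, ordered within each role; points are fitted values, bars are 1 SE, and open points did not pass the test. Psat1, Phgdh and Trib3 lie farthest right at 3.69, 3.22 and 2.93, Vldlr lies farthest left at -1.25, and the chaperones lie between -0.27 and 1.11.

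Of the sensors, Ern1 (IRE1) rose from 84.7 ± 25.5 to 182 ± 39.6 CPM (SD, n = 16 and 13), a log2 fold change of 1.13 ± 0.14 (SE, adjusted p = 2.22e-07, limma). Xbp1, the transcription factor that IRE1 activates by splicing, was 145 to 238 CPM in non-tumour and 256 to 402 CPM in tumour libraries. The Xbp1 ranges did not overlap, and its log2 fold change was 0.82 ± 0.08 (SE, adjusted p = 9.76e-10, limma). Eif2ak3, the kinase PERK, rose by 0.66 ± 0.09 on the log2 scale. Atf4 mRNA was higher by only 0.24 ± 0.09 (adjusted p = 0.0184, limma). That call was lost under median-ratio rescaling and without HFD WT non-tumour replicate 3. Atf6 fell by 0.15 ± 0.06 (adjusted p = 0.0337, limma), a call lost when any of 6 single libraries, or the 4 doubted ones together, were left out. Thus 4 of 5 sensors and factors rose and 1 fell, and the size ranged from 0.24 to 1.13 among those that rose.

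Trib3 (ENSMUSG00000032715, chromosome 2, 152337422 to 152344032, GRCm38) encodes a pseudokinase that is induced by ATF4 and restrains AKT and ATF4 itself. In alcohol non-tumour liver it was 4.65, 6.14, 9.65, 3.51 and 8.46 CPM in the libraries labelled IL17RA-/- and 14.4, 3.98, 6.32, 10.2 and 7.21 CPM in WT. In HFD non-tumour liver it was 5.35, 4.94 and 8.18 CPM in libraries labelled IL17RA-/- and 15.8, 5.11 and 6.52 CPM in WT. Non-tumour libraries were therefore alike across the 4 groups, with HFD WT replicate 1 the highest. Tumours on alcohol had 79.3, 58.6, 57.7 and 49.2 CPM with the IL17RA-/- label and 107, 45.8 and 94.2 CPM in WT. Tumours on HFD had 74.0, 121 and 79.7 CPM with the IL17RA-/- label, but 18.4, 41.9 and 34.2 CPM in WT. All 13 tumours lay above all 16 non-tumour libraries, and the HFD WT tumours were the lowest tumour group. The tissue difference was 2.93 ± 0.19 on the log2 scale (SE, adjusted p = 3.8e-12, limma).

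Psat1 (ENSMUSG00000024640, chromosome 19, 15904678 to 15947337) and Phgdh (ENSMUSG00000053398, chromosome 3, 98313170 to 98339990) encode enzymes that turn a glycolytic intermediate into serine. Psat1 had a lowest, median and highest value of 0.46, 2.57 and 20.4 CPM in non-tumour and 27.6, 49.9 and 81.8 CPM in tumour libraries. Its highest non-tumour values, 20.4 and 10.6 CPM, were in the 2 non-tumour libraries with raised tumour markers. Phgdh was 0 to 4.48 CPM in non-tumour liver, at 0 in 2 libraries, and 5.60 to 28.9 CPM in tumours. Neither gene overlapped between tissues, with log2 fold changes of 3.69 ± 0.32 for Psat1 and 3.22 ± 0.23 for Phgdh (SE). How many of all genes did not overlap between tissues was not counted. Most Phgdh values in non-tumour liver lay near what 3 counts stand for, so its fold change depends on the constant added before the logarithm. Phgdh counts were whole in 22 of 29 libraries, which means that some reads were shared with other genes by the authors' counting, so its exact level is uncertain. Mthfd2, a mitochondrial one-carbon enzyme, rose by 1.05 ± 0.18, whereas Shmt2, the mitochondrial enzyme that splits serine and feeds it, fell by 0.56 ± 0.09 (adjusted p = 1.19e-05, limma).

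**Figure D2:**
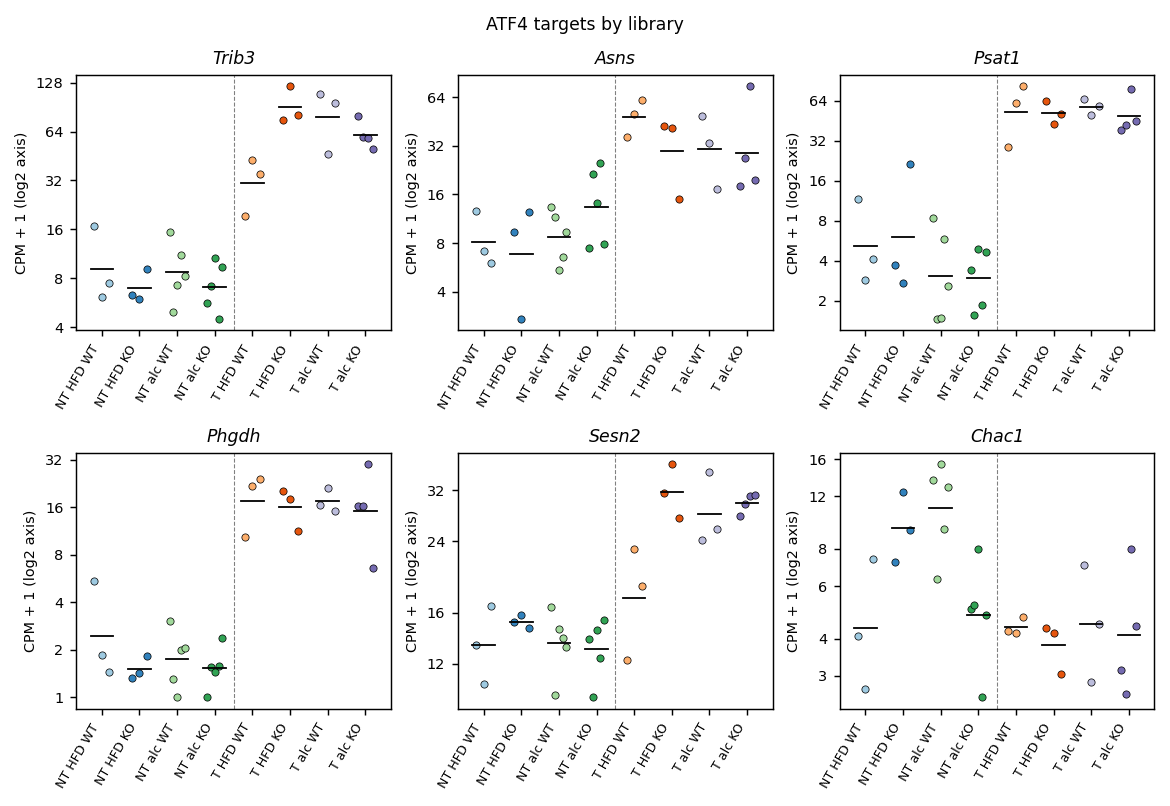
CPM + 1 (y axis, log2) of 6 ATF4 targets in each library by group, where NT is non-tumour, T tumour, alc alcohol and KO the label IL17RA-/-; points are libraries and bars are geometric means of CPM + 1. Trib3, Psat1 and Phgdh separate the tissues completely, Asns and Sesn2 overlap between them, and Chac1 is not higher in tumours.

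Asns (ENSMUSG00000029752, chromosome 6, 7675169 to 7693254) encodes asparagine synthetase, a classic gene of the amino acid response. In alcohol non-tumour liver Asns was 6.41, 20.4, 13.1, 24.0 and 6.90 CPM in the libraries labelled IL17RA-/- and 12.5, 10.6, 4.42, 5.51 and 8.39 CPM in WT. In HFD non-tumour liver it was 8.40, 1.72 and 11.5 CPM with the IL17RA-/- label and 11.6, 6.13 and 5.06 CPM in WT. Replicates 2 and 4 of the alcohol non-tumour libraries labelled IL17RA-/- thus reached levels seen in tumours. Alcohol tumours had 17.1, 25.8, 73.9 and 18.7 CPM with the IL17RA-/- label and 48.2, 32.2 and 16.4 CPM in WT. HFD tumours had 41.3, 40.4 and 13.9 CPM with the IL17RA-/- label and 35.5, 49.4 and 60.2 CPM in WT. The tumour value was higher by 1.90 ± 0.27 on the log2 scale (SE, adjusted p = 1.61e-06, limma), and 9 of 13 tumours lay above all non-tumour libraries.

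Sesn2 (ENSMUSG00000028893, chromosome 4, 132492032 to 132510501) encodes sestrin 2, a leucine-binding inhibitor of mTORC1 signalling. Across non-tumour liver Sesn2 was 12.8, 8.93, 13.5, 11.4 and 14.3 CPM (alcohol, labelled IL17RA-/-) and 15.6, 9.04, 13.6, 12.9 and 12.2 CPM (alcohol, WT). On HFD it was 14.2, 14.8 and 13.7 CPM with the IL17RA-/- label and 12.3, 9.71 and 15.6 CPM in WT. These 16 values form a narrow band. Alcohol tumours had 26.6, 28.6, 30.04 and 30.2 CPM with the IL17RA-/- label and 23.1, 34.5 and 24.7 CPM in WT. HFD tumours had 30.5, 36.1 and 26.4 CPM with the IL17RA-/- label and 11.3, 21.9 and 17.7 CPM in WT. Only HFD WT tumour replicate 4 fell inside the non-tumour range, and the tissue difference was 0.92 ± 0.10 (SE, adjusted p = 1.74e-08, limma).

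Chac1 (ENSMUSG00000027313, chromosome 2, 119351229 to 119354381), which degrades glutathione and is a sensitive target of ATF4 in many cells, went the other way. In alcohol non-tumour liver Chac1 was 4.01, 4.18, 6.98, 1.55 and 3.80 CPM with the IL17RA-/- label and 12.6, 5.36, 14.4, 8.34 and 11.9 CPM in WT. In HFD non-tumour liver it was 6.22, 11.4 and 8.28 CPM with the IL17RA-/- label and 3.08, 1.70 and 6.41 CPM in WT. The order of the genotype labels was thus opposite on the 2 diets. Tumours held 2.14, 1.61, 6.98 and 3.42 CPM (alcohol, labelled IL17RA-/-), 6.09, 1.86 and 3.48 CPM (alcohol, WT), 3.33, 3.16 and 2.04 CPM (HFD, labelled IL17RA-/-) and 3.25, 3.17 and 3.71 CPM (HFD, WT). Every tumour lay within the non-tumour range, and the mean difference was -0.70 ± 0.20 (SE, adjusted p = 0.00353, limma).

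Vldlr, a lipoprotein receptor that PERK and ATF4 can raise in liver, fell from 10.9 ± 5.37 to 4.07 ± 2.02 CPM (SD, n = 16 and 13), a log2 fold change of -1.25 ± 0.25 (SE, adjusted p = 9.3e-05, limma). Among the other ATF4 targets, Nupr1, a small stress-induced chromatin protein, rose by 1.33 ± 0.17 on the log2 scale. It was 1.08 ± 0.64 CPM in non-tumour and 4.28 ± 1.82 CPM in tumour liver (SD). The non-tumour values of Nupr1 lay near what 3 counts stand for, so its fold change depends on the constant added before the logarithm. Ddit3 (CHOP), a pro-apoptotic factor, rose by 0.98 ± 0.15, from 6.97 ± 2.12 to 15.3 ± 5.24 CPM (SD). Atf5, a factor translated in the same way as ATF4, rose by 0.85 ± 0.09. Ppp1r15a (GADD34), which recruits the phosphatase that resets eIF2, was 13.2 ± 3.25 CPM in non-tumour and 16.1 ± 4.91 CPM in tumour liver and did not pass (adjusted p = 0.109, limma). Ddit4, an mTORC1 inhibitor also raised by fasting and glucocorticoids, was 20.3 ± 13.7 and 23.3 ± 10.6 CPM and did not pass either (adjusted p = 0.386, limma).

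Hspa5 (ENSMUSG00000026864, chromosome 2, 34771970 to 34777547) encodes BiP, the main ER chaperone and the brake on all 3 sensors. In alcohol non-tumour liver Hspa5 was 624, 1581, 834, 1189 and 844 CPM with the IL17RA-/- label and 814, 1019, 709.5, 1163 and 1147 CPM in WT. In HFD non-tumour liver it was 665, 1056 and 1014 CPM with the IL17RA-/- label and 1185, 875 and 592 CPM in WT. Alcohol tumours had 1676, 1117, 1838 and 1728 CPM with the IL17RA-/- label and 1499.7, 1739.5 and 2014 CPM in WT. HFD tumours had 1461, 1002.5 and 1239.5 CPM with the IL17RA-/- label and 1371, 848 and 1758 CPM in WT. The ranges overlapped, with 6 of 13 tumours above every non-tumour library, and the difference was 0.65 ± 0.15 (SE, adjusted p = 0.000414, limma).

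Sdf2l1 (ENSMUSG00000022769, chromosome 16, 17130138 to 17132383), a co-factor of the BiP cycle, was 6.90, 43.5, 12.3, 30.8 and 30.9 CPM in alcohol non-tumour libraries labelled IL17RA-/- and 15.7, 24.0, 13.6, 27.1 and 23.6 CPM in WT. On HFD non-tumour liver had 19.1, 11.4 and 20.9 CPM with the IL17RA-/- label and 34.6, 20.8 and 10.8 CPM in WT. The first alcohol group thus held both the lowest and the highest non-tumour library. Sdf2l1 in alcohol tumours was 52.5, 33.6, 57.0 and 52.3 CPM with the IL17RA-/- label and 53.0, 54.7 and 52.7 CPM in WT. In HFD tumours it was 28.4, 22.5 and 40.5 CPM with the IL17RA-/- label and 32.8, 20.4 and 58.9 CPM in WT. The tissue difference was 1.02 ± 0.22 (SE, adjusted p = 0.000321, limma).

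Pdia6, a disulfide isomerase that also tempers IRE1 and PERK, was the chaperone-set gene with the largest fitted tissue difference, 1.11 ± 0.13 (SE), rising from 264 ± 70.5 to 563 ± 94.4 CPM (SD). HFD WT non-tumour replicate 1, with 439.7 CPM, was the only non-tumour library to overlap the tumours, whose lowest value was 406 CPM. Dnajb9, a BiP co-chaperone and a target of XBP1, rose by 0.78 ± 0.13 on the log2 scale. Creld2, Hyou1, Pdia3, Hsp90b1, Manf, Pdia4 and Dnajb11 rose by 0.64 to 0.27. The calls of Manf, a secreted ER stress protein, and of Dnajb11 were lost under median-ratio rescaling. That of Manf was also lost in 17 of the 29 fits that left out 1 library. That of Dnajb11 was also lost without HFD WT non-tumour replicate 3. The lectin chaperones of glycoprotein folding did not rise: Calr (calreticulin) was 600.3 ± 103 CPM in non-tumour and 509 ± 148 CPM in tumour liver (SD; adjusted p = 0.0568, limma), and Canx (calnexin) was 664 ± 65.3 and 609.7 ± 119 CPM (SD; adjusted p = 0.112, limma). Dnajc3, the co-chaperone p58IPK that inhibits PERK, did not pass (adjusted p = 0.397, limma).

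**Figure D3:**
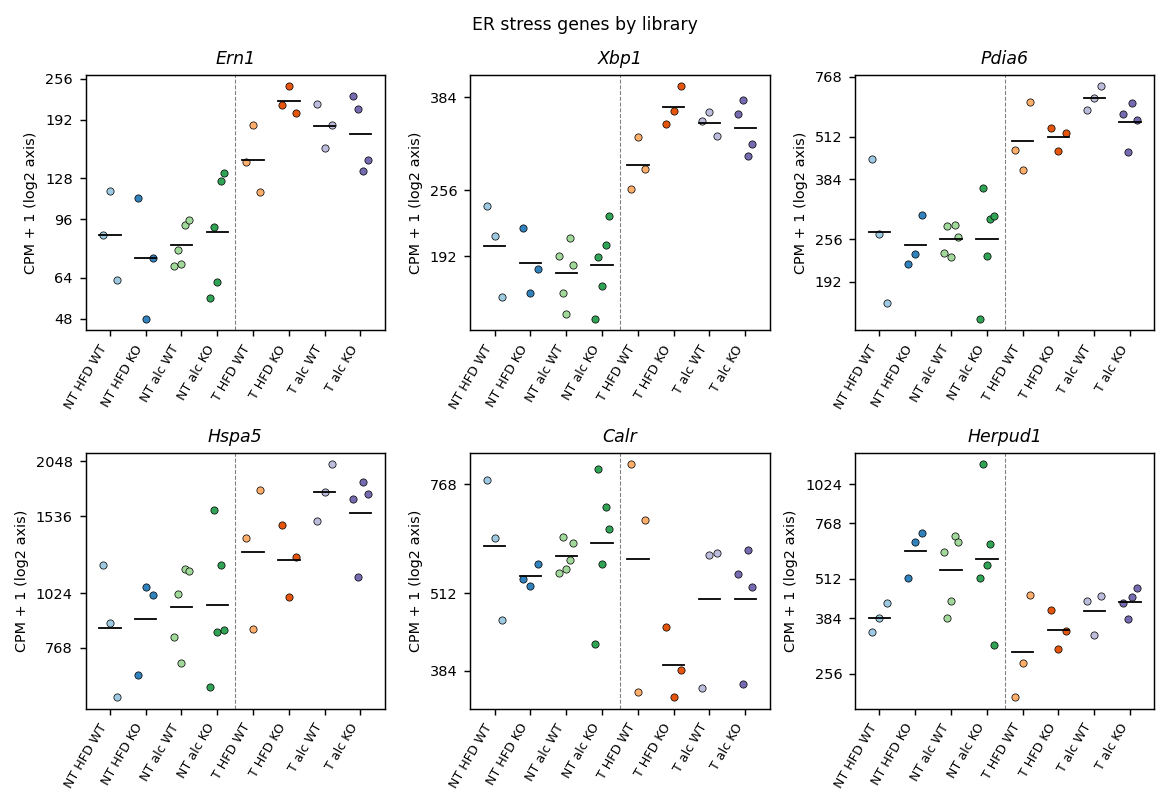
CPM + 1 (y axis, log2) of 6 genes of the ER arm in each library by group, with NT non-tumour, T tumour, alc alcohol and KO the label IL17RA-/-; points are libraries and bars are geometric means of CPM + 1. Xbp1 separates the tissues completely, Ern1 and Pdia6 nearly so with 12 of 13 tumours above all non-tumour libraries, Hspa5 overlaps, and Calr and Herpud1 are not higher in tumours.

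Herpud1 (ENSMUSG00000031770, chromosome 8, 94386438 to 94395377), which organises the ubiquitin ligase complex of ER-associated degradation, was lower in tumours. In alcohol non-tumour liver it was 514, 1181, 565, 659 and 315 CPM with the IL17RA-/- label and 623, 384, 435, 697 and 671 CPM in WT. In HFD non-tumour liver it was 514, 670.0 and 714 CPM with the IL17RA-/- label and 345, 383 and 427 CPM in WT. The 3 HFD WT values lay at the low end of non-tumour liver. Alcohol tumours had 429, 379.6, 446 and 479 CPM with the IL17RA-/- label and 433, 339 and 452 CPM in WT. HFD tumours had 407, 305 and 349 CPM with the IL17RA-/- label and 215, 276 and 455 CPM in WT. Herpud1 fell by 0.52 ± 0.15 on the log2 scale (SE, adjusted p = 0.00355, limma). Edem1, a mannosidase-like lectin that hands glycoproteins to degradation, was 273 ± 31.1 CPM in non-tumour and 272 ± 41.1 CPM in tumour liver (SD). Sel1l, the ligase adaptor, was 230.1 ± 43.7 and 245 ± 41.0 CPM (SD), and neither passed.

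Averaged within each library, the 14 ATF4 targets and the 14 chaperones differed in how far they separated the tissues. The mean log2(CPM + 1) of the ATF4 targets ran from 2.92 to 3.80 over non-tumour and from 3.94 to 4.81 over tumour libraries, with no overlap. Psat1, Phgdh and Trib3, each without overlap alone, had the largest rises in this set (3.69, 3.22 and 2.93). By contrast, 3 targets fell and 2 did not pass. A mean without those genes of largest rise was not computed, so the separation need not hold for the rest of the set. The same mean for the chaperones ran from 7.05 to 8.38 in non-tumour and from 7.64 to 8.47 in tumour libraries, with wide overlap. Alcohol non-tumour replicate 2 labelled IL17RA-/- had the highest value among non-tumour libraries in 13 of 14 chaperones, while replicate 1 of the same group had the lowest in 11 of 14. That replicate 2 had a mean of 3.15 for the ATF4 targets, inside the non-tumour range. These per-library means are descriptions and carry no test.

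**Figure D4:**
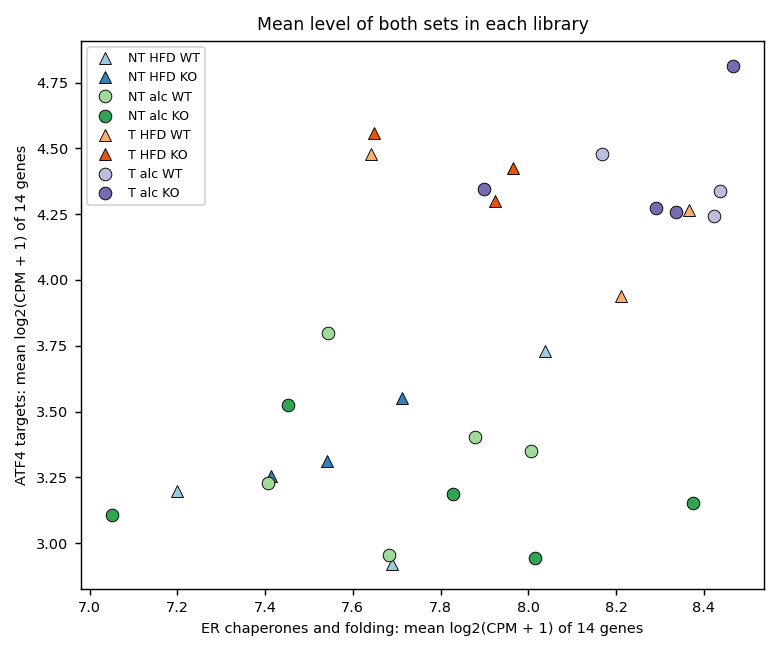
Mean log2(CPM + 1) of the 14 ATF4 targets (y axis) against that of the 14 ER chaperones (x axis), 1 point per library; circles are alcohol and triangles HFD, with NT non-tumour, T tumour, alc alcohol and KO the label IL17RA-/-. Tumours start at 3.94 and non-tumour libraries end at 3.80 on the y axis, while both tissues share the stretch from 7.64 to 8.38 on the x axis.

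The 4 tissue comparisons within diet and genotype gave 22, 19, 9 and 18 called genes. For alcohol WT 19 rose and 3 fell, where 35.7% of all genes tested passed, 16.6% higher and 19.2% lower. For alcohol with the IL17RA-/- label 18 rose and 1 fell, against 39.9% of all genes, 21.8% higher and 18.1% lower. For HFD WT 8 rose and 1 fell, against 15.3%, 7.64% higher and 7.61% lower. For HFD with the IL17RA-/- label 15 rose and 3 fell, against 40.4%, 23.9% higher and 16.5% lower. Of the 36 genes, 7 rose in each of these 4 comparisons (Xbp1, Nupr1, Trib3, Psat1, Phgdh, Mthfd2 and Pdia6), 0 fell in each, and 11 passed in none. The share of all genes with each of these patterns was not computed, so these counts have no background beside them. Of these 7, Psat1 and Phgdh kept their call in all 4 under every alternative. Mthfd2 kept it in 1 of 6 fits that left out 1 library for HFD with the IL17RA-/- label, and for HFD WT Xbp1 and Mthfd2 kept it in 2 of 6 and Pdia6 in 3 of 6. Within the ATF4 targets 12, 10, 7 and 11 of 14 passed, and within the chaperones 7, 6, 1 and 3 of 14, in the same order. All of these chaperone calls were rises. On HFD, 1 and 3 of 14 were near the 7.64% and 23.9% of all genes that rose. Many of the chaperone calls needed single libraries. For alcohol with the IL17RA-/- label, 2 of the 6 (Pdia6 and Dnajb9) were still called without non-tumour replicate 1, non-tumour replicate 3 or tumour replicate 6, and 3 of 6 without tumour replicate 4 or 7. For alcohol WT, 4 of the 7 were still called without tumour replicate 5 or 6. For HFD with the IL17RA-/- label, 1 of the 3 (Pdia6) was still called without non-tumour replicate 1 or tumour replicate 4 or 6. The HFD WT call was lost without non-tumour replicate 2 or 3 or tumour replicate 6. Some ATF4 target calls were also lost in fits that left out 1 library. In alcohol WT, Nupr1, Chac1 and Asns each kept theirs in 7 of 8 such fits, and Mthfd2 in 6 of 8. For alcohol with the IL17RA-/- label, Ppp1r15a, Shmt2 and Mthfd2 each kept it in 8 of 9. For HFD WT, Nupr1 kept it in 5 of 6 and Shmt2 in 2 of 6. For HFD with the label, Chac1 kept it in 4 of 6 and Asns in 5 of 6. With a replicate block, 1 chaperone (Pdia6) was still called in each alcohol comparison, against 9 of 12 and 7 of 10 ATF4 targets, although the numbers did not meet the rule for pairs there. The median of the targets was 1.04, 0.98, 0.56 and 1.02, and that of the chaperones 0.70, 0.55, 0.40 and 0.27. Over all genes tested the median was 0.01, 0.08, 0.07 and 0.15. The HFD WT comparison rests on 3 libraries a side that include 2 of the doubted ones. Without the 4 doubted libraries it again called 9 genes, but the median of its ATF4 targets was 1.15. Without HFD WT non-tumour replicate 2 or 3 it called 4 or 5.

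Asns was called in 3 of the 4 comparisons and missed only in alcohol with the IL17RA-/- label, the groups that held both the high non-tumour values and 1 tumour at 73.9 CPM. Chac1 fell in alcohol WT by 1.29 ± 0.38 and in HFD with the IL17RA-/- label by 1.31 ± 0.43, the pairs whose non-tumour side was high. The alcohol WT call of Chac1 was lost with the replicate block and without tumour replicate 5. Its HFD call was lost without tumour replicate 6 or non-tumour replicate 2. Vldlr fell in the same 2 comparisons, with log2 fold changes of -1.96 ± 0.47 and -1.91 ± 0.53. Whether these tissue differences depend on genotype or diet was tested as an interaction, and 0 of 36 genes passed for either one (0% of all genes in each). Trib3 came nearest for genotype, at 0.94 ± 0.38 on the log2 scale (adjusted p = 0.474, limma). With no adjustment, 2 genes had p under 0.05 for genotype and 1 for diet, against 9.32% and 3.67% of all genes. Calls by limma-voom on the recovered counts were also 0 for both.

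Of 109 tested genes of the same pathways that are not among the 36, 77 passed between tissues, 53 higher and 24 lower, a share near the 63.6% of all genes. Of 25 genes of ER translocation and folding, 20 rose and 1 fell, with a median of 0.40 on the log2 scale, the disulfide reductase Dnajc10 (1.38) and the translocon subunit Sec61a1 (0.89) at the top. Of 9 serine, proline and one-carbon enzymes, 5 rose and 3 fell, with Aldh1l2, a mitochondrial folate enzyme, at 3.06 and Cth, which makes cysteine from cystathionine, at -2.26. Of 8 amino acid transporters tested, 5 rose and 0 fell, among them Slc7a11 (3.47), the cystine carrier, and Slc7a1 (1.60), the arginine carrier. Of 13 cytosolic tRNA synthetases, 8 rose and 3 fell, from Vars at 1.12 to Aars at -0.69. Of 7 partners and secreted targets of ATF4 that were tested, 3 rose and 2 fell, with Fgf21 at 1.10 and Gdf15 at -1.02.

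Of 12 further ER degradation genes, 5 rose and 2 fell, led by the ligase Syvn1 (1.23) and by Derl3 (1.08). Derl3 is also among the 8 B and plasma cell markers summed below. Of 8 genes of the ATF6 and CREB3 family and its processing, 5 rose and 1 fell, led by Creb3l2 at 1.91. Of 10 eIF2 kinases, phosphatase and eIF2B subunits, 1 rose and 4 fell, where the kinase that senses uncharged tRNA, Eif2ak4 (GCN2), rose by 0.80 and Eif2b1 fell by 0.34. Mitochondrial chaperones and proteases went down, with 1 of 7 higher and 6 lower, Hspe1 at -0.87 and Clpx at -0.77. Of 10 cytosolic heat shock genes 0 rose and 2 fell, Hspb1 at -1.74 and Hsp90aa1 at -0.40. All of these calls are from the mean tissue comparison by limma, where 36.6% of genes rose and 27% fell.

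Other features of the libraries moved with tissue too. All 4 proliferation markers, all 4 liver tumour markers and 4 of 5 cholangiocyte markers rose, while all 6 Kupffer cell markers and 5 of 6 fasting genes fell. The summed level of 8 hepatocyte markers was 46737 to 83257 CPM in non-tumour and 72027 to 176880 CPM in tumour libraries, with 3 of them higher and 4 lower, so hepatocyte RNA was abundant in both. Summed B and plasma cell markers, of cells rich in ER, were 4.08 to 44.8 CPM in non-tumour and 7.12 to 353.8 CPM in tumour libraries, with 4 of 7 tested higher and up to 2 of 8 at 0 in a library. In alcohol WT tumours that sum was 7.12 to 22.7 CPM, within the non-tumour range. The part of any of these features in the changes was not tested.

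Between genotype labels, 1 of the 36 genes passed in HFD tumours and 0 in alcohol tumours. In HFD tumours Trib3 was 91.5 ± 25.5 CPM with the IL17RA-/- label and 31.5 ± 11.9 CPM in WT (SD, n = 3 each), with no overlap. Its log2 fold change was 1.55 ± 0.34 (SE, adjusted p = 0.0431, limma). Of 13269 genes, 1.61% passed there. The call was lost by limma without the doubted tumour libraries (1.22, adjusted p = 0.178), without the filter on low values (adjusted p = 0.0603) and with only the HFD groups in the fit (adjusted p = 0.144). It was also lost in 5 of 6 fits that left out 1 of these libraries, where the log2 fold change ran from 1.22 to 1.79 and only the fit without HFD WT replicate 5 kept the call. Sesn2 (30.98 ± 4.88 against 16.9 ± 5.37 CPM, adjusted p = 0.0628) and Ppp1r15a (20.2 ± 4.26 against 10.5 ± 2.47 CPM, adjusted p = 0.0687) did not overlap between the groups but did not pass by limma. Atf5 (174 to 219 against 111 to 150 CPM) did not overlap either and did not pass. The same held for Ern1 (201 to 242 against 115 to 184 CPM) and Xbp1 (341 to 402 against 256 to 322 CPM). The share of all genes without overlap between these groups was not computed, so the separation cannot be read as particular to these genes. Psat1 and Phgdh, by contrast, were at 51.8 ± 10.6 against 56.7 ± 27.3 CPM and 15.6 ± 4.62 against 17.8 ± 7.43 CPM (SD, n = 3 each).

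Without adjustment, 9 of the 36 genes had p under 0.05 in HFD tumours, against 22.5% of all genes, so the share is near the background. Canx had 497 ± 22.0 CPM with the IL17RA-/- label and 726 ± 171 CPM in WT (SD, n = 3 each; adjusted p = 0.124, limma). Median-ratio rescaling raised the number that passed from 1 to 3. Leaving out HFD WT tumour replicate 5 raised it to 7, while the number over all genes went from 213 to 1174. Of the 109 other pathway genes tested, 1 passed there, the ligase gene Syvn1 (0.96 ± 0.21, adjusted p = 0.0436, limma), and no alternative was computed for it. In the same groups the summed level of 8 immediate early genes was 395 to 572 CPM with the IL17RA-/- label and 162 to 256 CPM in WT, and 2 of them rose. The summed level of 6 fasting genes was 2756 to 4549 CPM with the label and 1262 to 2036 CPM in WT, and 1 of them rose. Sums of cell type markers differed there too. Cholangiocyte markers were at 216 to 268 CPM with the label and 352 to 1661 CPM in WT. Monocyte-derived macrophage markers, a list that shares Spp1 with them, were at 236 to 305 and 438 to 1753 CPM. Hepatocyte markers were at 125499 to 160196 and 72027 to 125564 CPM. The part of any of these sums in the Trib3, Sesn2, Ppp1r15a, Atf5, Ern1 and Xbp1 values was not tested.

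In alcohol tumours Trib3 was 61.2 ± 12.8 CPM with the IL17RA-/- label (n = 4) and 82.5 ± 32.5 CPM in WT (SD, n = 3), a log2 fold change of -0.36 ± 0.32. There 0 of 36 genes passed (0% of all genes), and limma-voom called 0. Only Vldlr had p under 0.05 without adjustment, against 1.97% of all genes, at 5.53 ± 1.88 CPM with the label and 2.40 ± 1.25 CPM in WT (SD). The difference between the diets in the genotype effect was 1.91 ± 0.47 for Trib3 (adjusted p = 0.276, limma) and -1.90 ± 0.50 for Vldlr (adjusted p = 0.297, limma), and 0 of 36 genes passed that test (0% of all genes). Without adjustment 8 had p under 0.05 for that difference, against 13.2% of all genes, and limma-voom called 0. In the mean over diets 0 of 36 passed as well (0.0301% of all genes). There 4 had p under 0.05 without adjustment, against 13.5% of all genes, and limma-voom called 0. A difference of the genotype effect between diets is therefore not shown for any of the 36 genes.

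**Figure D5:**
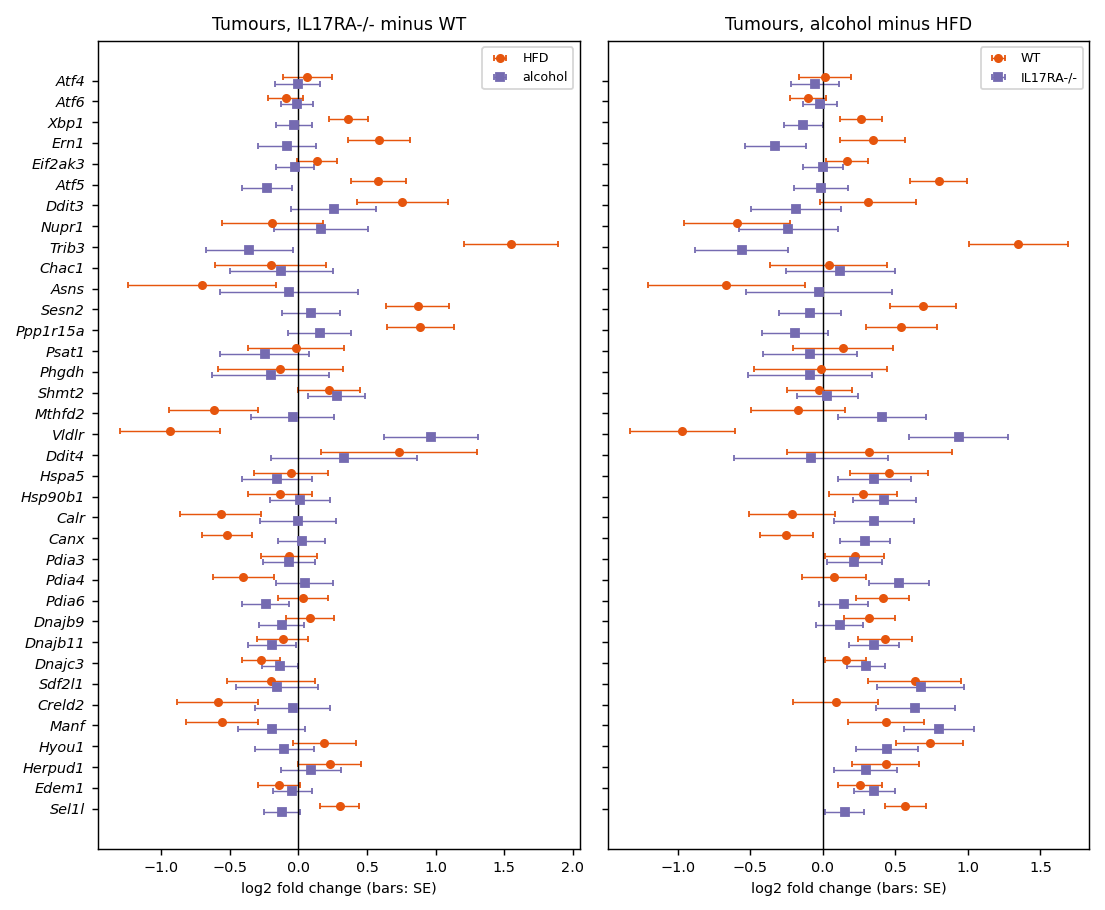
Log2 fold change (x axis, log2(CPM + 1) scale, bars 1 SE) of the 36 genes within tumours, for the label IL17RA-/- minus WT on each diet (left) and for alcohol minus HFD in each genotype (right). On the left Trib3 lies at 1.55 on HFD and -0.36 on alcohol; on the right most chaperones lie right of 0 in both genotypes, and none of those points passed the test.

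In the diet comparison within tumours the chaperones and the ER degradation genes shared a direction, but 0 of 36 genes passed (0% of all genes). In the mean over genotypes all 14 chaperones had a positive difference, alcohol minus HFD, from 0.02 to 0.65 and with a median of 0.33, against -0.07 over all genes tested. The 3 ER degradation genes were all positive too, with a median of 0.36. The 14 ATF4 targets had a median of 0.07, with 10 positive and 4 negative. Without adjustment 12 of 36 genes had p under 0.05, 8 of them chaperones and 3 of them ER degradation genes, against 5.68% of all genes. The smallest adjusted p among the 36 was 0.858 (limma), and limma-voom also called 0. Hspa5 was 1659 ± 285 CPM on alcohol (n = 7) and 1280.1 ± 327 CPM on HFD (SD, n = 6), a difference of 0.40 ± 0.18. Sdf2l1 was 50.8 ± 7.79 and 33.9 ± 14.2 CPM, Hyou1 434 ± 61.0 and 294 ± 64.4 CPM, and Manf 121 ± 18.7 and 82.8 ± 31.6 CPM, all with overlap. The chaperone median stayed between 0.23 and 0.42 with a pseudocount of 0.1, with rescaling, without the doubted libraries and with each library left out. It was not computed for the other alternatives.

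By genotype, the chaperone median was 0.30 in WT and 0.35 in tumours labelled IL17RA-/-, with 12 and 14 of 14 positive. In WT tumours 0 of 36 genes passed (0.00754% of all genes), 9 had p under 0.05 without adjustment against 16% of all genes, and calls by limma-voom were 0. The targets with such a p in WT included Trib3 (1.35 ± 0.34, adjusted p = 0.17) and Atf5 (0.80 ± 0.20, adjusted p = 0.17), by limma, which share the HFD WT tumours with the genotype comparison above. Rescaling moved the median of all genes in this comparison from -0.17 to -0.02. In tumours labelled IL17RA-/- 0 of 36 passed (0%), 7 had p under 0.05 without adjustment against 2.21% of all genes, and calls by limma-voom were 0. Trib3 there was 61.2 ± 12.8 CPM on alcohol and 91.5 ± 25.5 CPM on HFD (SD).

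In non-tumour liver, 0 of 36 genes passed for genotype or diet, in either subgroup or in the mean, where 0% of 12829 genes passed in each of these comparisons, and limma-voom also called 0. Without adjustment, p was under 0.05 between genotypes for 2 genes on alcohol, 1 on HFD and 0 in the mean, against 2.57%, 3.59% and 2.4% of all genes. Between diets it was so for 1 gene in WT, 2 with the IL17RA-/- label and 0 in the mean, against 4.22%, 5.81% and 5.73%. Chac1 had such a p in each of the 4 subgroups. It was 4.10 ± 1.93 CPM with the IL17RA-/- label and 10.5 ± 3.62 CPM in WT on alcohol (SD, n = 5 each), and 8.63 ± 2.60 and 3.73 ± 2.42 CPM on HFD (SD, n = 3 each). Its genotype effect thus differed between diets by 2.31 ± 0.53 on the log2 scale, which did not pass (adjusted p = 0.965, limma). Of the 36 genes 0 passed that test (0% of all genes), and Chac1 was the only one with p under 0.05 without adjustment, against 4.12% of all genes; limma-voom called 0. For Hspa5 the genotype difference in the mean over diets was 0.04 ± 0.20 and the diet difference in the mean over genotypes was 0.14 ± 0.20, and for Trib3 they were -0.34 ± 0.27 and -0.02 ± 0.27. Differences of that size lay within the spread between libraries. As in tumours, most chaperones lay higher on alcohol than on HFD without passing: the difference was positive for 13 of 14 in the mean over genotypes, 14 of 14 with the IL17RA-/- label and 9 of 14 in WT. Its medians were 0.12, 0.16 and 0.06, beside -0.01, 0.05 and -0.08 over all genes.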

How the data were processed

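Values were deposited by the authors as CPM for 22187 gene IDs, with every library summing to 1000000. The submitters' processing notes list STAR 2.5.1a, RSEM 1.3.0 and GRCm38; the annotation used in counting was not given in the sources. Libraries were polyA-selected and stranded, per the labels' protocols. Groups and replicate numbers came from the sample titles; the series text speaks of liquid ethanol or pair-feeding, the labels of HFD and HFD_alcohol. Symbols and coordinates came from GENCODE M21. Of the nonzero values, 83.1% to 85.9% were whole multiples of the step of 1 count within 0.002 counts, and at least 99.3% whole hundredths, which gave the depth. The level of 3 counts was taken as a floor, which covers counting error only.

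Tests used limma 3.58.1 (R 4.3.3) with a variance trend on log2(CPM + 1), for genes reaching 1 CPM in 3 libraries or more; the scale understates changes of low genes. All 36 genes passed that filter in every fit. Non-tumour comparisons used 16 libraries, tumour ones 13, and those between tissues all 29. P-values were adjusted over all genes tested. The script was tested on simulated data. The 36 genes, the other lists and the doubted libraries were chosen with earlier results of these data known. Trib3, Asns, Chac1, Sesn2, Hspa5, Sdf2l1 and Herpud1 were named in every case, as were up to 6 called rises and 6 called falls per comparison. Ppp1r15a, Vldlr, Atf5, Canx, Hyou1 and Manf within tumours and the sensors were named after their values were seen. Alternatives tried were median-ratio rescaling, no filter, a pseudocount of 0.1, limma-voom on the recovered counts, a replicate block, only the 2 groups compared, leaving out 4 doubted libraries together, and each library in turn. Replicate numbers were checked as pairs: only for alcohol against HFD in WT non-tumour liver did every pair correlate above 0.1 (0.138 to 0.352), and the blocked fit there again called 0 of the 36 genes.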

Additional observations from a re-analysis of the deposited data

Results flagged for a closer look

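In groups of 4 or 5 libraries, 7 of 108 tested sets of values had a library far from the rest, and chance alone gives about 1 in 20. Alcohol tumour replicate 6 labelled IL17RA-/- stood high in 4 ATF4 targets: Asns at 73.9 CPM (others 17.1 to 25.8), Psat1 at 78.1 CPM (others 37.5 to 43.9), Nupr1 at 7.60 CPM (others 2.49 to 3.29) and Mthfd2 at 10.3 CPM (others 4.03 to 5.10). Replicate 5 of that group stood low in the chaperone Dnajb11, at 94.2 CPM (others 127 to 133). Alcohol WT non-tumour replicate 1 stood high in Mthfd2, at 3.93 CPM (others 1.84 to 2.40), and low in Edem1, at 246 CPM (others 277 to 286).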

How the results depend on the processing

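Of 133 counts of called genes recomputed with another setting, 125 stayed within 1.5 times the main count, as did 252 of 261 with 1 library left out, and no called value changed sign. Most comparisons had 0 called genes, and 0 against 0 was counted as within. These totals therefore say little about the comparisons that held calls. With the replicate block, the tissue comparison on alcohol called 13 genes in WT (11 higher, 2 lower) and 11 with the IL17RA-/- label (11 higher), against 22 and 19; the numbers did not meet the rule for pairs there, and the block changed no other count apart from Trib3 in HFD tumours below. With only the 2 groups in the fit, the HFD WT tissue comparison called 3. Between genotypes in HFD tumours, 3 genes were called with rescaling, but 0 without the filter, with the replicate block, without the 4 doubted libraries and with only the 2 groups in the fit. Leaving out 1 library gave 17 to 25 and 14 to 24 called genes between tissues on alcohol (WT, then labelled IL17RA-/-), 4 to 10 and 13 to 16 on HFD, 27 to 30 in the mean, 0 to 7 between genotypes in HFD tumours and 0 to 1 between diets in WT tumours, where the 1 needed replicate 5 of the alcohol WT tumours left out. All other comparisons stayed at 0. The causes were not tested. Genes near 3 counts (0.31 to 0.93 CPM) are the least precise. Phgdh and Nupr1 in non-tumour liver, and the lowest Psat1 values there, are examples.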
